A study of Mus musculus with 11 samples.

Results

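A set of 8 retinoid genes was followed across the small intestine of mice: Rbp2, Adh1, Adh4, Aldh1a1, Aldh1a2, Rdh7, Lrat and Isx. The genes were chosen by symbol, for known roles in retinol binding, oxidation and esterification and in the control of carotenoid uptake, and all 8 were found among the 24294 gene symbols measured. RNA-seq was done on 11 libraries, of which 4 are labelled HLJDD, 4 HFD and 3 ND. The series title names Huang Lian Jiedu Decoction, a herbal preparation whose initials match the label HLJDD, and concerns obese mice. The labels used here do not spell out HFD or ND, and they give no strain, age, dose or duration, no diet of the HLJDD mice, and no stretch of small intestine. Whether the libraries of a group came from different animals is not stated either, and the p-values below speak only of the spread among these 11 libraries, part or all of which could be technical.

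Vitamin A reaches the gut lumen as retinyl esters and as plant carotenoids, and both are taken up by enterocytes, the absorptive cells of the villus. Inside the enterocyte, retinol is held by the binding protein made from Rbp2, esterified by the acyltransferase made from Lrat and packed into chylomicrons. A smaller share is oxidised, first to retinal by alcohol and retinol dehydrogenases and then, irreversibly, to retinoic acid by retinal dehydrogenases, and retinoic acid induces Isx, whose protein in turn represses the carotenoid receptor Scarb1 and the carotene cleaving enzyme Bco1.

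Levels are given in FPKM, fragment counts scaled by gene length and by the size of the library, as the authors deposited them. Each library held between 30101888 and 37943272 reads, and the members rested on 64 reads (Adh4 in ND replicate 1) to 326832 reads (Rbp2 in HLJDD replicate 4). A change is the mean of log2(FPKM + 1) in one group minus that in another. It was tested with limma, with p-values adjusted by the Benjamini-Hochberg method over the 10764 genes that reached 1 FPKM in 3 or more libraries, at a threshold of 0.05. Libraries stood apart in 2 ways. Mitochondrial transcripts took 40.7% of the reads in HLJDD replicate 2 and 32.4% in HFD replicate 1, against 10.4% to 19.3% in the other 9. Markers of the lower small intestine were high in the ND libraries, above all in ND replicates 1 and 2, as described below with the members' levels. Over the genes tested, the median change was 0.06 for HLJDD against HFD, -0.13 for HLJDD against ND and -0.20 for HFD against ND, on the log2 scale.

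The members did not all move one way. Rbp2, Adh1, Adh4 and Rdh7 were far higher in HLJDD and in HFD than in ND, by ratios of group means of 3.53 to 20.1 for HLJDD and 3.92 to 23.9 for HFD. Isx was lower in HFD than in ND, and Aldh1a1, Aldh1a2 and Lrat did not pass the test in any comparison. In HFD against ND, 4 of the 8 members rose, where 5.06% of all genes tested did, and 1 fell, where 11.5% of all genes did. In HLJDD against ND, 4 members rose, where 4.10% of all genes did, and 0 fell, where 7.79% of all genes did. Counted in both directions, 4 of 8 members were called in HLJDD against ND, where 11.9% of all genes were, and 5 of 8 in HFD against ND, where 16.6% of all genes were. Of all genes, 441 were higher and 838 lower in HLJDD against ND, with 545 higher and 1241 lower in HFD against ND, and after median-ratio scaling the counts were 932 and 981 in HLJDD against ND and 1254 and 1221 in HFD against ND. The counts of members were the same after this scaling. The median log2 change of the members was 1.29 for HLJDD against ND and 1.32 for HFD against ND. These comparisons share the 3 ND libraries, so they are not separate measurements of the same change. The filter on low values kept all 8 members, but Adh4 passed it only through HLJDD and HFD, since 1 of 3 ND libraries reached 1 FPKM.

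**Figure D1:**
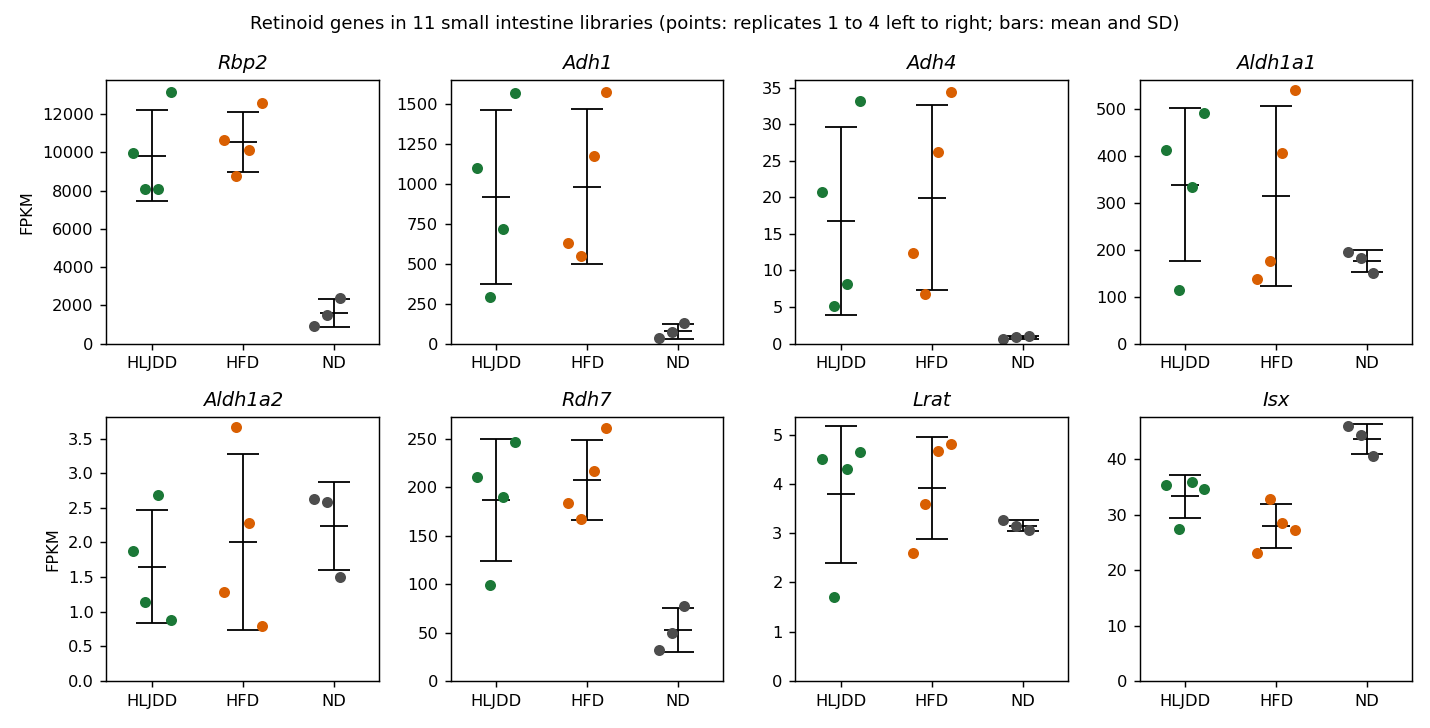
Level of each of the 8 retinoid genes in FPKM (vertical axis, from 0) in every library of the HLJDD, HFD and ND groups (points, replicates from left to right), with the group mean and SD as bars. For Rbp2, Adh1, Adh4 and Rdh7 every HLJDD and HFD library lies above every ND library, and for Isx every HLJDD and HFD library lies below every ND library.

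Rbp2 encodes cellular retinol binding protein II, which carries retinol and retinal in enterocytes and is known as a gene of the upper small intestine. It lies on chromosome 9 (chr9:98490537-98509771, GRCm38). Its level was 9959.1, 8082.1, 8094.1 and 13174.2 FPKM in HLJDD replicates 1 to 4, 10640.6, 8763.1, 10143.2 and 12555.9 FPKM in HFD replicates 1 to 4, and 913.4, 1501.9 and 2388.8 FPKM in ND replicates 1 to 3. The lowest HLJDD library was more than 3 times the highest ND library, and the HLJDD and HFD libraries overlapped. Rbp2 was among the most abundant transcripts of the tissue. It ranked 7 to 10 among all symbols in HLJDD libraries, 7 to 11 in HFD libraries and 19 to 42 in ND libraries. The group means were 9827.4 ± 2399.2 FPKM in HLJDD (SD, n = 4), 10525.7 ± 1569.3 in HFD (n = 4) and 1601.4 ± 742.7 in ND (n = 3). Against ND, Rbp2 rose by 2.70 on the log2 scale in HLJDD (SE 0.30, 95% interval 2.05 to 3.34, limma adjusted p = 0.000342) and by 2.81 in HFD (SE 0.30, interval 2.17 to 3.46, adjusted p = 0.000221).

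Both alcohol dehydrogenase members rose. Adh1 encodes the class I alcohol dehydrogenase, which oxidises ethanol and retinol, and lies on chromosome 3 (chr3:138277585-138290698). Its level was 1101.8, 290.8, 719.6 and 1566.6 FPKM in HLJDD, 626.7, 546.3, 1177.0 and 1574.1 FPKM in HFD, and 32.41, 72.26 and 126.7 FPKM in ND. No HLJDD or HFD library fell within the ND range, but levels spread widely inside the groups, with an SD of 59.1% of the mean in HLJDD, 49.4% in HFD and 61.4% in ND. The lowest HLJDD value belonged to replicate 2, the library with the highest mitochondrial share. Adh1 rose by 3.52 in HLJDD against ND (SE 0.58, 95% interval 2.25 to 4.78, limma adjusted p = 0.00293) and by 3.72 in HFD against ND (SE 0.58, interval 2.45 to 4.99, adjusted p = 0.00175). Ordered from the largest rise, it was number 7 and number 6 of the 10764 genes tested.

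Adh4 encodes the class II alcohol dehydrogenase, which is best known from the liver, and lies on the same stretch of chromosome 3 (chr3:138415456-138432683). It was measured at 20.68, 5.129, 8.097 and 33.20 FPKM in HLJDD, 12.36, 6.791, 26.22 and 34.39 FPKM in HFD, and 0.571, 0.927 and 1.007 FPKM in ND. Its level was thus far below that of Adh1 in every library, by an Adh1 to Adh4 ratio of 47.2 to 88.9 in HLJDD, 44.9 to 80.4 in HFD and 56.8 to 125.8 in ND. Those ranges overlapped. Adh4 rose by 2.97 in HLJDD against ND (SE 0.58, 95% interval 1.69 to 4.24, limma adjusted p = 0.00728) and by 3.29 in HFD against ND (SE 0.58, interval 2.01 to 4.56, adjusted p = 0.00349). The ratios of group means were 20.1 and 23.9, larger than the log2 changes show, since the added 1 FPKM understates the change of a gene this low in ND. Of 7 liver markers, 3 were tested and 1, Ttr, was higher in each group against ND, although it reached 1 FPKM in no ND library and so was tested only through the groups where it is high. Their summed level was 6.50 to 8.03 FPKM in HLJDD, 5.98 to 11.5 FPKM in HFD and 4.40 to 4.53 FPKM in ND, and their part in the Adh4 result was not tested.

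The promoters of the 3 members that rose most and of Isx, which was lower in HFD, are printed to show what their start sites share. Each runs from 250 bases before to 50 bases after the RefSeq start site on the plus strand of GRCm38.p6, 5′ to 3′. Capitals mark a match to the binding word of GATA factors, searched on both strands as AGATAA or AGATAG or TGATAA or TGATAG, because Gata4 is a transcription factor of the upper small intestine.
Rbp2 (chr9:98490287-98490586): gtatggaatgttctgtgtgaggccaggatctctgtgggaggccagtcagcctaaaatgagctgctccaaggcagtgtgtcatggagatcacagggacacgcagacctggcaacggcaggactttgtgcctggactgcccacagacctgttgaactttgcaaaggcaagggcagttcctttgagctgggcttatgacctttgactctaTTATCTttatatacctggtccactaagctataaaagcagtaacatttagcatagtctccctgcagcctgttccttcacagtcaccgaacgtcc
Adh1 (chr3:138277335-138277634): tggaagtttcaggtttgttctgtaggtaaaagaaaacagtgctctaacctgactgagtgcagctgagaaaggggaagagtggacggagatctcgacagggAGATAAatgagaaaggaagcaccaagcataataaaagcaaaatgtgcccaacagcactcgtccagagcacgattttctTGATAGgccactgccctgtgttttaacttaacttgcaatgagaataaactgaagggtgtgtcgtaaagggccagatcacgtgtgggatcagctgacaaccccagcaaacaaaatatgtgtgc
Adh4 (chr3:138415247-138415546): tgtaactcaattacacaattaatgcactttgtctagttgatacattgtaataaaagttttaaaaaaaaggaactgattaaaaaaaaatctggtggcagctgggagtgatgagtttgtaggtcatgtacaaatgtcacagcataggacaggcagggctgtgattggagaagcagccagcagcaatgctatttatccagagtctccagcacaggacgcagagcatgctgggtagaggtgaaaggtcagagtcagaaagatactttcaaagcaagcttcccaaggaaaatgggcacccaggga
Isx (chr8:74872924-74873223): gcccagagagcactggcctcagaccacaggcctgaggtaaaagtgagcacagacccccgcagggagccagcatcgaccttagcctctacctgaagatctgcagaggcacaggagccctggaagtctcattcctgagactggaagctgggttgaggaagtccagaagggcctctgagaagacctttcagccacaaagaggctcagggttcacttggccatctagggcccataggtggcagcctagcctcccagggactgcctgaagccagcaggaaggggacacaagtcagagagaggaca

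A GATA word stood at position -43 of the Rbp2 promoter, on the minus strand, and at -150 and -72 of the Adh1 promoter, and none was in that of Adh4, which also rose. Among the members not printed, Aldh1a1, which did not pass the test, held such words at both of its start sites, at 23 from the first and at -193 and -32 from the other. Rdh7 held one at 19 from its second start site and none at its first, and Aldh1a2 and Lrat held none. Of 32851 RefSeq promoters of the same length, 29.8% hold such a word. The word TTTAT, the core of what the gut factors Cdx1 and Cdx2 bind, stood at -38 and -14 in Rbp2, at -148, -120 and -29 in Adh1 and at -201 and -62 in Adh4, and 40.0% of all promoters hold it. It also stood at -30 from the second start site of Aldh1a1 and at -207, -202 and -198 from the first of Rdh7. The TTTAT words at -38 in Rbp2, -148 in Adh1 and -30 in Aldh1a1 overlap the GATA words beside them. AGGTCA, the half-site of nuclear receptors including those for retinoic acid, stood at -58 in Rbp2 and at -133 and -11 in Adh4, against 16.3% of all promoters. It stood at -105 from the first start site of Rdh7 as well. GTTAAT, the half-site of the gut and liver factor Hnf1, was in none of these 4 promoters and in 7.1% of all. None of the 4 words was found in the Isx promoter, which says only that these letters are not in this window. A match is a run of letters, not a measured binding site.

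Rdh7 is a short-chain dehydrogenase gene of the retinol dehydrogenase group, on chromosome 10 (chr10:127884027-127889247). It was measured at 210.4, 99.4, 190.5 and 246.9 FPKM in HLJDD, 183.4, 167.6, 216.9 and 261.0 FPKM in HFD, and 31.93, 49.33 and 77.29 FPKM in ND. The groups did not overlap with ND, although HLJDD replicate 2 came near the highest ND library. Rdh7 rose by 1.82 in HLJDD against ND (SE 0.33, 95% interval 1.10 to 2.53, limma adjusted p = 0.00478) and by 2.02 in HFD against ND (SE 0.33, interval 1.30 to 2.74, adjusted p = 0.00222). Of its 50-base stretches, 12.9% also occur in other transcripts, mainly of Rdh18-ps, Rdh1 and Rdh16f1, so a part of its reads could have been assigned to or from these copies. For Rbp2, Adh4, Aldh1a2, Lrat and Isx that share was 0%, for Adh1 2.1%, and for Aldh1a1 3.1%.

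**Figure D2:**
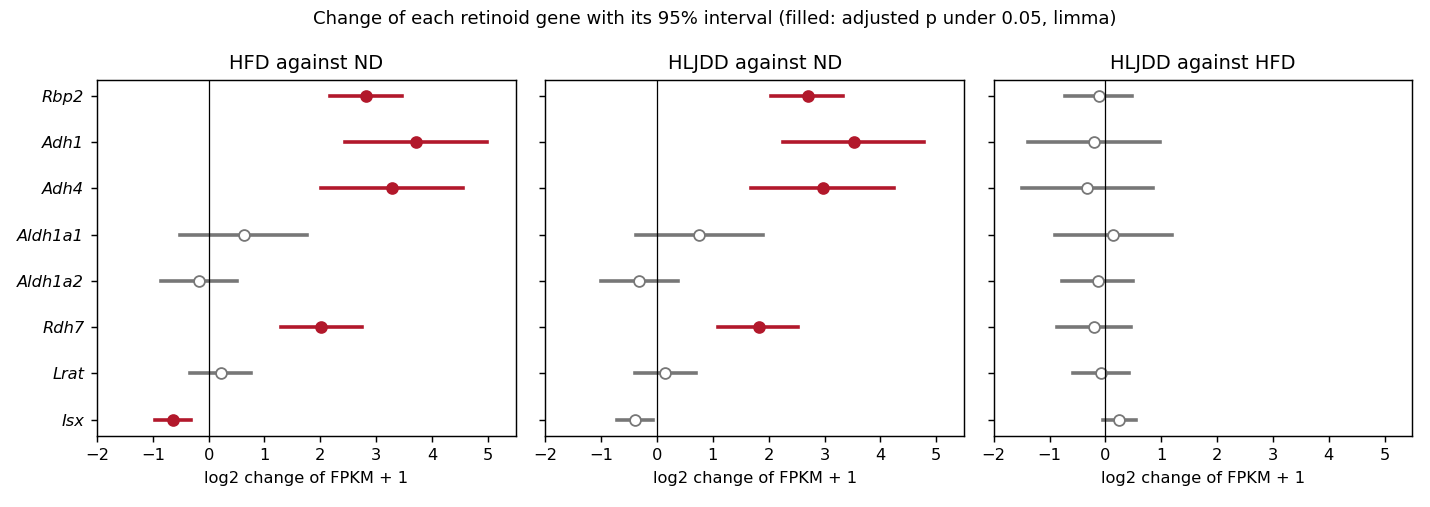
Log2 change of FPKM + 1 (horizontal axis) of each member, with its 95% interval, for HFD against ND, HLJDD against ND and HLJDD against HFD. Filled points passed a limma adjusted p of 0.05. The intervals of Rbp2, Adh1, Adh4 and Rdh7 lie wholly above 0 against ND, and in HLJDD against HFD every interval includes 0.

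Adh1, Adh4 and Rdh7 sit in gene clusters whose neighbours were measured as well. On chromosome 3, Adh7, Adh1, Adh6a, Adh4 and Adh5 lie in this order within 257 kb, and all but Adh5 rose in both comparisons with ND. Adh6a stood at 513.1 ± 157.5 FPKM in HLJDD (n = 4), 657.2 ± 124.6 in HFD (n = 4) and 95.2 ± 80.2 in ND (n = 3), and its log2 change was 2.82 in HLJDD against ND (limma adjusted p = 0.00511) and 3.2 in HFD against ND (adjusted p = 0.00222). Adh7, the class IV enzyme, which oxidises retinol efficiently, was low throughout, at 2.57 ± 1.45 FPKM in HLJDD, 3.45 ± 1.08 in HFD and 0.275 ± 0.153 in ND. Its log2 change was 1.41 (limma adjusted p = 0.00844) and 1.78 (adjusted p = 0.00198). No ND library reached 1 FPKM, so Adh7 entered the test only through HLJDD and HFD, where it is high. Adh5, the class III enzyme, which acts on glutathione-bound formaldehyde and is made in nearly all tissues, had log2 changes of 0.48 in HLJDD against ND (95% interval -0.03 to 0.98) and 0.43 in HFD against ND (interval -0.07 to 0.94) and did not pass (adjusted p = 0.201 and 0.189).

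On chromosome 10, Rdh1, Rdh9, Rdh16, Rdh19, Rdh16f2 and Rdh7 lie within 130 kb and did not move one way. Rdh7 and its neighbour Rdh16f2 rose, Rdh16f2 by 1.65 in HLJDD against ND (limma adjusted p = 0.0265) and by 1.89 in HFD against ND (adjusted p = 0.0119). As deposited, Rdh16f2 overlapped between HLJDD and ND, with HLJDD replicate 2 at 4.359 FPKM and ND replicate 3 at 4.468 FPKM. After median-ratio scaling these were 5.651 and 4.263 FPKM and the 2 groups were apart. The more distant Rdh9 and Rdh16 fell. Rdh9 was measured at 29.5 ± 8.07 FPKM in HLJDD, 29.7 ± 4.18 in HFD and 61.9 ± 2.33 in ND, with log2 changes of -1.09 (adjusted p = 0.00606) and -1.05 (adjusted p = 0.00624). Rdh16 had log2 changes of -1.12 (adjusted p = 0.0090) and -1.13 (adjusted p = 0.00688). Rdh1 and Rdh19 were too low to be tested. The Rdh7 to Rdh9 ratio of FPKM, which does not depend on how a library is scaled, was 5.10 to 8.19 in HLJDD, 6.47 to 7.37 in HFD and 0.527 to 1.28 in ND. Reads of Rdh9 are the least certain of the cluster, since 68.3% of its 50-base stretches also occur in other transcripts. Rdh16f2 no longer passed with ND replicate 1 left out, at an adjusted p of 0.153 for HLJDD against ND and 0.0761 for HFD against ND. For HLJDD against ND it was also lost without ND replicate 2 (0.0884), HLJDD replicate 1 (0.0699) or HLJDD replicate 4 (0.0787).

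**Figure D3:**
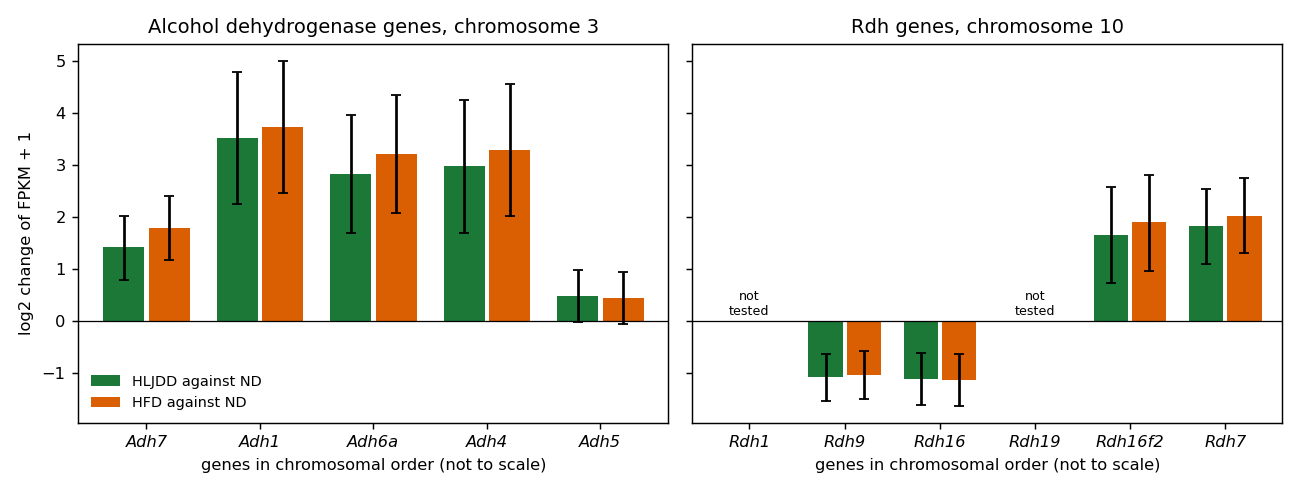
Log2 change of FPKM + 1 (vertical axis; bars start at 0, lines are 95% intervals) against ND in HLJDD and HFD, for the alcohol dehydrogenase genes of chromosome 3 and the Rdh genes of chromosome 10, in chromosomal order and not to scale. The chromosome 3 bars all point up, from 0.43 for Adh5 to 3.72 for Adh1, whereas on chromosome 10 Rdh9 and Rdh16 point down and Rdh16f2 and Rdh7 point up.

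The retinal dehydrogenase genes, which make retinoic acid from retinal, did not pass the test. Aldh1a1, the form of the gut epithelium (chr19:20492583-20643463), was measured at 413.1, 114.7, 334.1 and 491.6 FPKM in HLJDD, 138.3, 175.0, 405.1 and 540.6 FPKM in HFD, and 195.9, 181.5 and 149.4 FPKM in ND. As deposited, the HLJDD and HFD libraries lay on both sides of the ND range. The 2 lowest values belonged to the 2 libraries with the highest mitochondrial share. After median-ratio scaling no HLJDD or HFD library lay below the ND range. The lowest scaled values were 148.7 FPKM in HLJDD and 166.0 FPKM in HFD, against 142.6 to 166.4 FPKM in ND. The log2 change was 0.76 in HLJDD against ND (95% interval -0.37 to 1.90, limma adjusted p = 0.355) and 0.63 in HFD against ND (interval -0.51 to 1.76, adjusted p = 0.381). Without HLJDD replicate 2 and HFD replicate 1, the libraries with the highest mitochondrial share, Aldh1a1 rose in HLJDD against ND, by 1.22 (adjusted p = 0.0368, range over all alternatives 0.0368 to 0.878). With all libraries, the balance of Adh1 to Aldh1a1 differed between the groups. The ratio of their FPKM was 2.67, 2.54, 2.15 and 3.19 in HLJDD, 4.53, 3.12, 2.91 and 2.91 in HFD, and 0.166, 0.398 and 0.848 in ND. Adh1 exceeded Aldh1a1 in all 8 HLJDD and HFD libraries and was below it in all 3 ND libraries.

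Aldh1a2, which in the gut is known mainly from stromal cells and from dendritic cells that make retinoic acid, was low (chr9:71215789-71296243). It was measured at 1.88, 1.15, 2.69 and 0.873 FPKM in HLJDD, 1.29, 3.66, 2.28 and 0.794 FPKM in HFD, and 2.62, 2.58 and 1.498 FPKM in ND. The groups overlapped fully, and the log2 change was -0.32 in HLJDD against ND (95% interval -1.0 to 0.37, limma adjusted p = 0.53) and -0.18 in HFD against ND (interval -0.86 to 0.51, adjusted p = 0.685). With 67 to 280 reads per library, this was the member with the fewest reads in HLJDD and HFD. Stromal fibroblast markers (6 of 6 measured) summed to 42.8, 32.4, 57.1 and 24.2 FPKM in HLJDD, 26.4, 90.5, 50.3 and 26.2 in HFD, and 99.4, 76.1 and 51.0 in ND, and 0 of the 6 passed the test in any comparison. HFD replicate 2 was highest among the HFD libraries in both Aldh1a2 and this sum, and HLJDD replicate 3 among the HLJDD libraries. Mesothelial markers (5 measured, 3 tested) summed to 4.08 to 14.4 FPKM in HLJDD, 2.73 to 14.0 in HFD and 10.4 to 16.7 in ND, with 1 lower in each group against ND. Dendritic cell markers (10 measured, 2 tested) summed to 5.20 to 11.9 FPKM in HLJDD, 8.91 to 12.5 in HFD and 11.1 to 11.3 in ND, with 0 called. Ly75 was the largest part of this sum in every library, and the 2 tested went opposite ways. Ly75 had log2 changes of -0.51 in HLJDD and -0.45 in HFD against ND, and Ccr7 had 0.63 and 0.80. Ccr7 reached 1 FPKM in no ND library, so it was tested only through HLJDD and HFD. The part of these cells in the Aldh1a2 levels was not tested, and in bulk tissue fewer cells of a type and less RNA per cell cannot be told apart.

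Lrat, the acyltransferase that forms retinyl esters for export (chr3:82892582-82903974), was low in every group. It was measured at 4.50, 1.70, 4.30 and 4.65 FPKM in HLJDD, 2.60, 3.60, 4.66 and 4.81 FPKM in HFD, and 3.26, 3.14 and 3.06 FPKM in ND. As deposited, the lowest value of each of HLJDD and HFD again belonged to the library with the high mitochondrial share. After median-ratio scaling the lowest HFD value was that of replicate 2. Scaled levels were 3.415 to 4.897 FPKM in HFD, above the 2.694 to 2.919 FPKM in ND, whereas HLJDD and ND still overlapped. The log2 change was 0.14 in HLJDD against ND (95% interval -0.40 to 0.69, limma adjusted p = 0.734) and 0.22 in HFD against ND (interval -0.33 to 0.76, adjusted p = 0.528). Without HLJDD replicate 2 and HFD replicate 1, Lrat rose in both comparisons, by 0.40 (adjusted p = 0.0204, range over all alternatives 0.0204 to 0.958) and 0.36 (adjusted p = 0.0241, range 0.0241 to 0.825). The other genes of esterification and chylomicron export that were listed, Dgat1, Mttp and Apob, were all tested and 0 of 3 passed in any comparison.

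Isx, the homeobox gene that damps carotenoid uptake (chr8:74873174-74893506), was lower in HFD than in ND. It was measured at 35.31, 27.48, 35.86 and 34.56 FPKM in HLJDD, 23.12, 32.86, 28.48 and 27.27 FPKM in HFD, and 46.02, 44.42 and 40.63 FPKM in ND. Every HLJDD and HFD library was below every ND library, as deposited and after median-ratio scaling, which removes the shift of the median gene. Isx fell by 0.64 in HFD against ND (SE 0.15, 95% interval -0.96 to -0.32, limma adjusted p = 0.0139). In HLJDD against ND the log2 change was -0.39 (interval -0.71 to -0.07) and did not pass (adjusted p = 0.109). After median-ratio scaling the levels were 33.4 ± 2.15 FPKM in HLJDD (n = 4), 29.4 ± 1.68 in HFD (n = 4) and 38.7 ± 0.520 in ND (n = 3), and the log2 change was -0.21 in HLJDD against ND (adjusted p = 0.126) and -0.38 in HFD against ND (adjusted p = 0.011). With ND replicate 1 or ND replicate 2 left out, Isx no longer passed in HFD (adjusted p = 0.0708 and 0.0709), and over all alternatives its adjusted p ran from 0.00351 to 0.496.

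The genes that Isx is known to repress were low. Scarb1, the receptor that takes up carotenoids, was measured at 3.8 ± 2.89 FPKM in HLJDD (n = 4), 2.377 ± 1.496 in HFD (n = 4) and 0.772 ± 0.281 in ND (n = 3), with log2 changes of 1.25 in HLJDD against ND (95% interval 0.30 to 2.21, limma adjusted p = 0.0854) and 0.83 in HFD against ND (interval -0.13 to 1.78, adjusted p = 0.184). Bco1, which cleaves beta-carotene into retinal, was measured at 1.26 ± 0.851 FPKM in HLJDD, 1.26 ± 0.602 in HFD and 0.484 ± 0.0446 in ND, with log2 changes of 0.51 (interval -0.17 to 1.18, adjusted p = 0.302) and 0.57 (interval -0.11 to 1.24, adjusted p = 0.196). Neither passed the test in any comparison. Every HLJDD library was above every ND library in Scarb1, at 1.3 FPKM or more against at most 1.05 FPKM. This held after median-ratio scaling as well, whereas Scarb1 in HFD overlapped with ND and Bco1 overlapped in both comparisons. Bco1 reached 1 FPKM in no ND library and Scarb1 only in ND replicate 1, so both entered the test through HLJDD and HFD.

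Set against HFD, HLJDD showed no detectable difference in the retinoid genes. All 8 members overlapped between these groups, 0 of 8 passed, and 0% of all 10764 genes passed by limma. At an unadjusted p under 0.05 there were 186 genes, 1.7% of those tested, with 0 members among them, and limma-voom on whole reads also called 0 genes. The log2 change of HLJDD against HFD was -0.12 for Rbp2 (95% interval -0.72 to 0.48), -0.20 for Adh1 (-1.38 to 0.97), -0.32 for Adh4 (-1.5 to 0.86) and -0.20 for Rdh7 (-0.87 to 0.46). It was 0.14 for Aldh1a1 (-0.91 to 1.19), -0.14 for Aldh1a2 (-0.77 to 0.49) and -0.07 for Lrat (-0.58 to 0.43). Isx came nearest to a difference, at 0.25 (-0.05 to 0.55, unadjusted p = 0.0934, adjusted p = 0.999). The intervals still allow changes of over 1 on the log2 scale for Adh1, Adh4 and Aldh1a1, so they do not show that the groups are alike.

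Among markers of the stretch of gut, most proximal ones tested rose along with the members that rose, and most distal ones fell. The 7 proximal small intestine markers, among which the fatty acid carrier Fabp1 makes up nearly the whole sum, added up to 11444.2, 9382.8, 8730.6 and 15029.2 FPKM in HLJDD, 11771.0, 11569.1, 12544.1 and 15026.3 FPKM in HFD, and 507.8, 2031.7 and 4582.3 FPKM in ND. The 7 distal markers, led by Clec2h and the ileal bile acid carrier Fabp6, added up to 668.1, 510.0, 923.4 and 459.1 FPKM in HLJDD, 578.6, 862.1, 633.4 and 535.3 FPKM in HFD, and 11752.2, 8436.4 and 1747.8 FPKM in ND. ND replicate 3 had the highest proximal and the lowest distal sum of its group. As deposited, it also had the highest Rbp2, Adh1, Adh4 and Rdh7 and the lowest Aldh1a1, Aldh1a2, Lrat and Isx of its group. After median-ratio scaling this no longer held for Lrat and Isx. Scaled Lrat in ND replicate 3 was 2.919 FPKM, the highest of its group, and scaled Isx was 38.76 FPKM, within a range of 38.08 to 39.1. Of 5 proximal markers tested, 3 (Fabp1, Gata4 and Onecut2) rose and 1, Slc40a1, fell in each comparison with ND. Slc40a1 had log2 changes of -1.85 in HLJDD (limma adjusted p = 0.00233) and -1.96 in HFD (adjusted p = 0.0014). Lct had changes of 2.13 and 2.17 and did not pass (adjusted p = 0.0759 and 0.0571). Cyp8b1, another proximal marker, was at or near 0 in all 3 groups, at most 0.014 FPKM in any library, and was not tested. Of 6 distal markers tested, 6 fell in HLJDD against ND and 5 in HFD against ND. Onecut2, a proximal marker, reached 1 FPKM in no ND library and Slc10a2, a distal one, in no HLJDD or HFD library, so both entered the test only through the groups where they are high. Fabp6 stood at 0.212 to 2.27 FPKM in HLJDD and 1.26 to 4.31 in HFD, against 9821, 6702 and 397 FPKM in ND. Gata4 stood at 26.4 to 36.6 FPKM in HLJDD, 25.9 to 35.7 in HFD and 9.75 to 24.7 in ND. The part of the stretch of gut in the members' changes was not tested, and as the labels give no stretch, it cannot be told apart from the group.

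Measured against ND replicate 3 alone, Rbp2 rose by 2.13 in HFD (limma adjusted p = 0.036) and its log2 change was 2.01 in HLJDD (adjusted p = 0.0503). In the same fit the log2 changes of Adh1, Adh4 and Rdh7 were 2.60, 2.83 and 1.19 in HLJDD (adjusted p = 0.338, 0.381 and 0.454) and 2.81, 3.15 and 1.39 in HFD (adjusted p = 0.22, 0.249 and 0.278). This fit, chosen after seeing the data, assumes that the lone ND library varies like the other groups, and of all genes it called 11 for HLJDD and 32 for HFD. The summed level of enterocyte markers overlapped between the groups. With 6 of 6 measured, it was 18691.2 to 34141.3 FPKM in HLJDD, 26285.9 to 35410.3 in HFD and 26107.3 to 38819.7 in ND, and 1 of the 6, Alpi, rose in each comparison with ND.

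**Figure D4:**
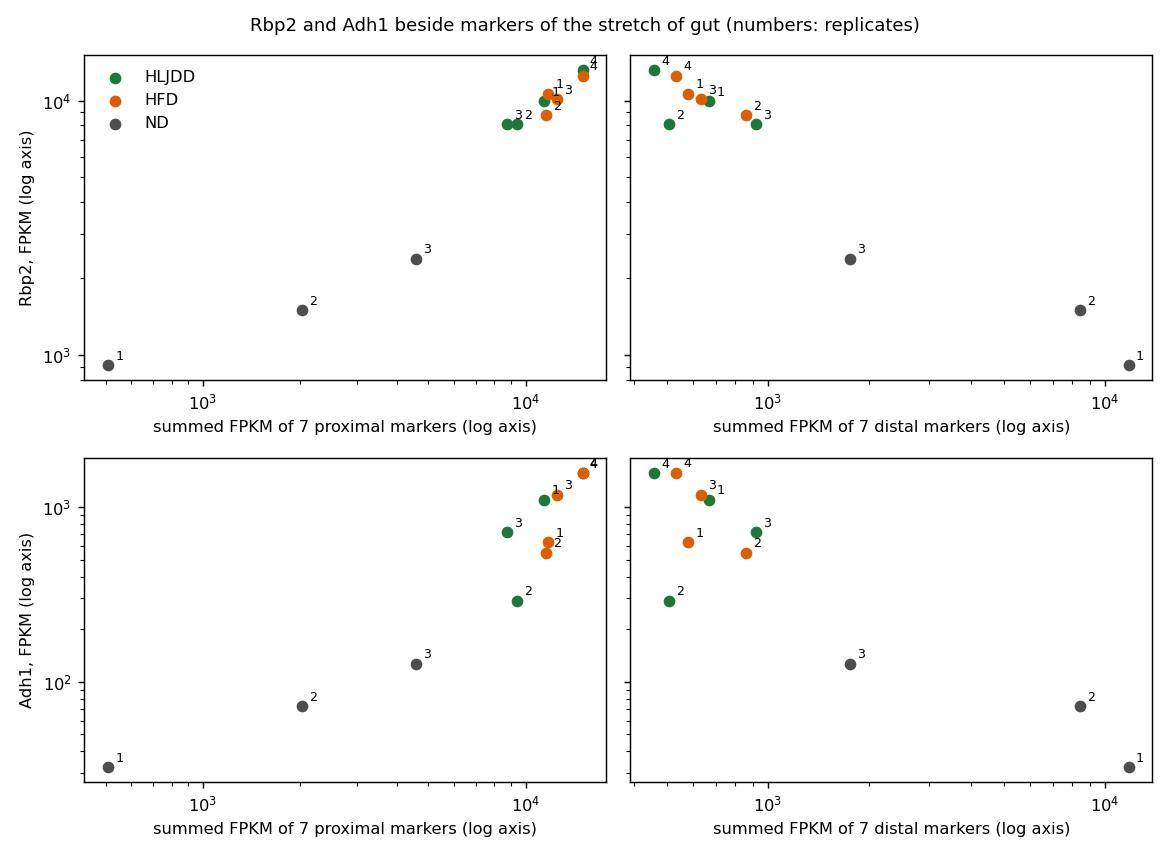
Level of Rbp2 (top) and Adh1 (bottom) in FPKM against the summed FPKM of 7 proximal (left) and 7 distal (right) small intestine markers in each HLJDD, HFD and ND library, all on log axes, with the replicate number beside each point. The 3 ND libraries lie at the low end of the proximal sum and the high end of the distal sum, with ND replicate 3 nearest to the other 8 libraries.

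Beyond the members, 52 other genes of retinoid handling were listed, 51 were measured and 35 reached the filter. In HLJDD against ND, 9 of the 35 rose and 3 fell, with a median log2 change of 0.36, and in HFD against ND 7 rose and 3 fell, with a median of 0.35. Among all genes tested, 4.10% rose and 7.79% fell in HLJDD against ND, and 5.06% rose and 11.5% fell in HFD against ND, so the 3 that fell are near or below the share of all genes. The counts of genes that rose include Adh7 and Ttr, which entered the test only through HLJDD and HFD. After median-ratio scaling 13 rose and 3 fell in each of the 2 comparisons. The oxidoreductases held most of these, with 5 of 15 higher and 2 lower in each comparison. They were Adh6a, Adh7, Rdh16f2, Rdh9 and Rdh16, described above, with Rdh5 and Dhrs3. Rdh5, known as the retinol dehydrogenase of the visual cycle, rose by 0.56 in HLJDD against ND (limma adjusted p = 0.0409) and by 0.57 in HFD against ND (adjusted p = 0.0309). Dhrs3, which turns retinal back into retinol, rose by 0.63 (adjusted p = 0.0472) and 0.76 (adjusted p = 0.0185). Both calls were lost in several fits that left out 1 library. In those fits the log2 change in HLJDD against ND stayed at 0.49 to 0.62 for Rdh5 and 0.54 to 0.69 for Dhrs3. For HLJDD against ND, the Rdh5 call was lost without HLJDD replicate 1, 2 or 4, without HFD replicate 2 or 3, or without any 1 of the ND replicates (adjusted p = 0.052 to 0.183), and the Dhrs3 call without HLJDD replicate 1, 3 or 4, HFD replicate 2, 3 or 4, or any 1 of the ND replicates (0.057 to 0.197). For HFD against ND, the Rdh5 call was lost without HFD replicate 1 or 4 or ND replicate 1 or 2 (0.0562 to 0.143), and the Dhrs3 call without ND replicate 1 or 2 (0.075 to 0.0949).

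Among genes of retinyl ester hydrolysis, Plb1 had the widest gap. Its protein is a brush border phospholipase that in the rat also splits retinyl esters. It was measured at 9.52, 0.0361, 18.2 and 0.0539 FPKM in HLJDD, 0.0739, 5.54, 2.04 and 0.0583 FPKM in HFD, and 163.0, 207.8 and 266.4 FPKM in ND. Every ND library was far above the rest, and levels differed by over 100 times between libraries of HLJDD. Plb1 fell by 5.76 in HLJDD against ND (limma adjusted p = 0.0033) and by 6.58 in HFD against ND (adjusted p = 0.00135). Pnliprp2, a relative of pancreatic lipase, rose by 1.32 (adjusted p = 0.0111) and 1.65 (adjusted p = 0.00284). Lpl, the lipase that unloads chylomicrons in the circulation, rose in HLJDD against ND by 2.60 (adjusted p = 0.00555). In HFD against ND its log2 change was 1.31 (adjusted p = 0.0799).

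Among binding and transport genes, Ttr, the carrier that holds the plasma retinol binding protein, rose by 1.03 in HLJDD against ND (limma adjusted p = 0.0034) and by 1.05 in HFD against ND (adjusted p = 0.00258), at levels of 1.66 to 3.60 FPKM in HLJDD and HFD libraries and 0.663 to 0.694 FPKM in ND libraries. It too entered the test only through HLJDD and HFD, since no ND library reached 1 FPKM. Rbp4, the gene of that binding protein, rose by 1.08 in HLJDD against ND (adjusted p = 0.0112), and its log2 change in HFD against ND was 0.45 (adjusted p = 0.172). With ND replicate 1 or ND replicate 2 left out, Rbp4 no longer passed (adjusted p = 0.0551 and 0.0511). In HLJDD against HFD, Rbp4 and Lpl had log2 changes of 0.63 and 1.28, both with an adjusted p of 0.999 and an unadjusted p of 0.0124 and 0.0146. The other retinoid gene with an unadjusted p under 0.05 there was Rdh13, with a log2 change of 0.35 (limma unadjusted p = 0.0467, adjusted p = 0.999). None of the 4 genes of carotenoid uptake and cleavage, the 3 retinoic acid receptors tested, the 2 other retinal dehydrogenases tested or Cyp2s1, the 1 gene of retinoic acid clearance tested, passed in any comparison. The retinoic acid hydroxylases Cyp26a1 and Cyp26b1 were at most 0.119 FPKM in every library.

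**Figure D5:**
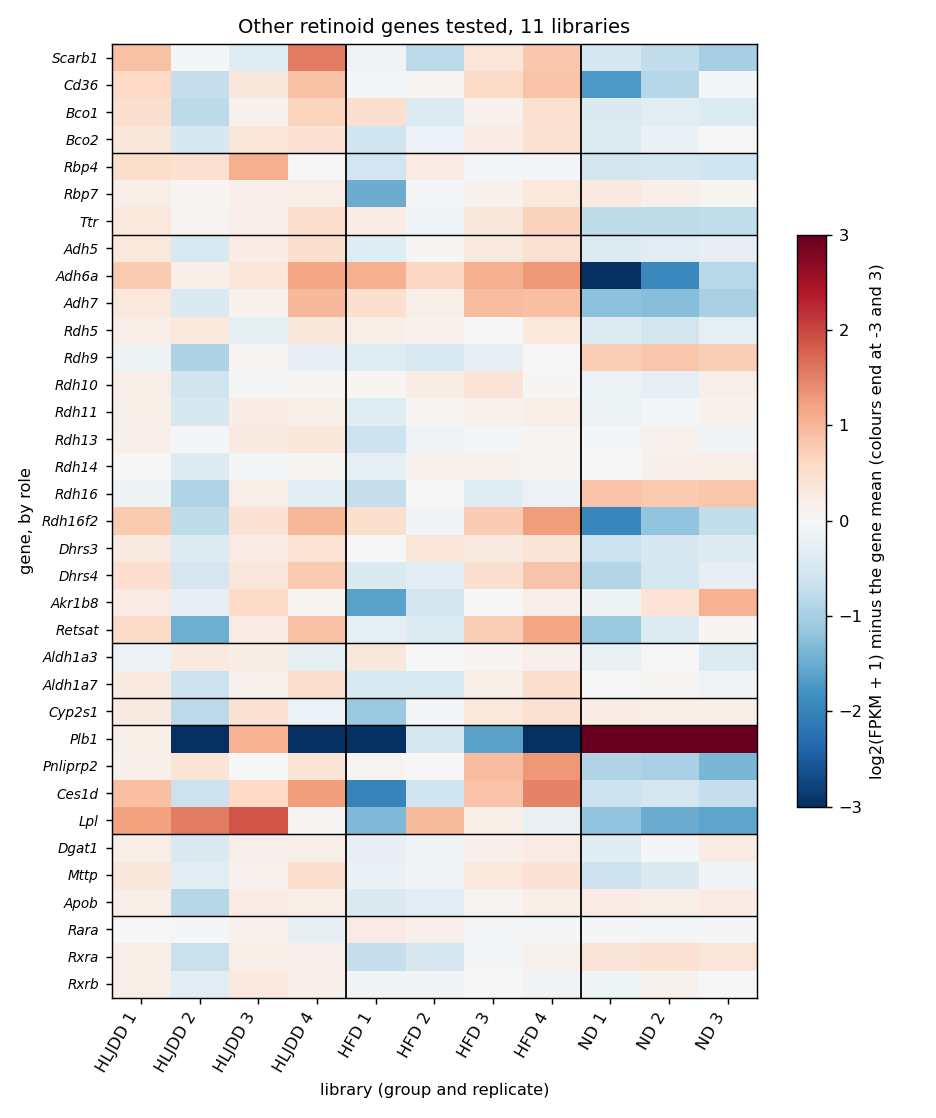
Level of the 35 other retinoid genes tested (one per line, grouped by role) in each of the 11 libraries, as log2(FPKM + 1) minus the mean of the gene, where red is above and blue below its mean and colours end at -3 and 3. Adh6a, Adh7, Rdh16f2 and Ttr are blue in the ND libraries, and Plb1, Rdh9 and Rdh16 are red there.

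Some genes followed Rbp2 and Adh1 closely over the 11 libraries. Likeness was measured as the root mean square difference of log2(FPKM + 1), each gene centred on its own mean, over 10354 named genes. The 5 genes nearest to Rbp2 were Cldn4 (0.258), Casp6 (0.266), Gprc5a (0.266), Leap2 (0.277) and Slc28a2 (0.312), where the median of all genes was 1.37. Leap2 averaged 552.0 FPKM in HLJDD, 618.2 in HFD and 82.7 in ND. The 5 nearest to Adh1 were Slc46a1 (0.41), Aadac (0.441), Lypd8l (0.469), Nt5e (0.486) and Bbox1 (0.502), with a median of 1.85. Slc46a1 averaged 82.8 FPKM in HLJDD, 89.2 in HFD and 5.35 in ND. Among the members, Rbp2 lay nearest to Rdh7 (0.44), Adh1 to Adh4 (0.48), Isx to Aldh1a2 (0.39) and Lrat to Isx (0.41). Genes that vary little lie close by this measure whatever their pattern, and Isx, Aldh1a2 and Lrat varied less than Rbp2 and Adh1. The difference between Rbp2 and Isx was 1.52 and that between Adh1 and Isx 2.00. The 11 libraries fall into 3 groups, and the markers of the stretch of gut move with the groups, so these distances describe the libraries and carry no test.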

How the data were processed

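Total RNA from mouse small intestine was extracted with TRIzol and made into libraries with a VAHTS kit, per the labels' protocols. The tools were fastp, HISAT2, HTSeq and R 3.2.0 with mm10, per the submitters' processing notes, which give no roles. No source used here gives the annotation or the strand setting. FPKM values were computed and deposited by the authors for 24294 symbols, and the single files and the series table differed in 0 values. FPKM steps gave whole reads, within 0.003 reads, for 24292 symbols (99.99%), hence the library totals.

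Libraries were grouped by title. The 10764 genes reaching 1 FPKM in 3 or more libraries were fitted with limma 3.58.1 (R 4.3.3) on log2(FPKM + 1) of the deposited values, all 11 libraries in 1 fit with a variance trend, no covariate, two-sided, Benjamini-Hochberg threshold 0.05. The fit was tested on simulated data. All 8 members passed the filter, so no permutation test was needed. Named are all members, the listed pathway genes, marker genes, and the 5 genes most like Rbp2 and Adh1. The members and lists were chosen with earlier results of these data known. Alternatives were pseudocount 0.1, no filter, TPM scaling, median-ratio scaling, only the 2 groups compared, robust variances, a replicate block, limma-voom on the reads and each library left out. Leaving out HFD replicate 1 with HLJDD replicate 2, or ND replicates 1 and 2, was added after seeing the data. Positions and promoters come from RefSeq GRCm38.p6, the assembly of mm10, and shared 50-base stretches from GENCODE transcripts of GRCm38.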

Additional observations from a re-analysis of the deposited data

Results flagged for a closer look

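In HLJDD, 2 members had a lowest library set far apart from the other 3. Lrat was at 1.702 FPKM in HLJDD replicate 2, against 4.30 to 4.65 FPKM in the other HLJDD libraries, a gap beyond the 95% critical value of Dixon's test. Isx was at 27.48 FPKM in the same library, against 34.56 to 35.86 FPKM in the others. Replicate 2 is the HLJDD library in which mitochondrial transcripts took 40.7% of the reads. After median-ratio scaling Isx in this library was 35.6 FPKM, the highest of its group, and Lrat was 2.21 FPKM, still the lowest. Chance marks about 1 in 20 groups this way, and 16 groups of members were examined.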

How the results depend on the processing

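Over 21 alternatives and 3 comparisons, 504 values of members were computed again: 469 kept their direction and side of the threshold, 10 lost a call, 4 gained one and 21 changed sign. The rises of Rbp2, Adh1, Adh4 and Rdh7 against ND passed in every alternative that leaves out 1 library, with log2 changes of 2.34 to 3.04, 3.01 to 3.99, 2.55 to 3.37 and 1.5 to 2.13 in HLJDD and 2.46 to 3.15, 3.21 to 4.17, 2.96 to 3.68 and 1.71 to 2.33 in HFD. Without ND replicates 1 and 2 together, 0 members and 0 other retinoid genes were called higher or lower in HLJDD against ND, and in HFD against ND 1 member was higher, 0 lower and 0 other genes called. With each library left out, the members lower in HFD against ND numbered 0 to 1. Without HFD replicate 1 and HLJDD replicate 2, 1 member, Isx, was lower in HLJDD against ND (-0.30, adjusted p = 0.0434), and 16 other genes were called in HFD against ND, as after median-ratio scaling (16). The cause was not tested. All sign changes were in values that did not pass. For HLJDD against HFD, Adh1 was at 0.10 and Rdh7 at 0.02 without HFD replicate 1 and HLJDD replicate 2, and Lrat at 0.04. Leaving out 1 library gave -0.54 to 0.27 for Adh1, -0.74 to 0.09 for Adh4, -0.18 to 0.59 for Aldh1a1, -0.36 to 0.10 for Aldh1a2, -0.36 to 0.07 for Rdh7 and -0.21 to 0.18 for Lrat. Aldh1a2 was at 0.03 in HLJDD and 0.17 in HFD against ND replicate 3 alone, at -0.42 to 0.04 in HFD against ND with 1 library left out, and at 0.00 with the replicate block.

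Replicate numbers did not pair the libraries. Same-numbered deviations correlated at -0.266 to 0.343, and a library correlated best with its own number in 4 of 20 cases. With the replicate block the members called were the same in number (4 higher and 0 lower in HLJDD against ND, 4 and 1 in HFD against ND, 0 between HLJDD and HFD), the other genes called were 10 and 8, and all genes called were 724 and 1080, against 1279 and 1786 without it. Counts of all genes also moved by over 1.5 times in HLJDD against ND without HLJDD replicate 1 (802), HLJDD replicate 4 (677), ND replicate 1 (435) or ND replicate 2 (438). In HFD against ND they did so without HLJDD replicate 2 (3314), HFD replicate 3 (1189), ND replicate 1 (617) or ND replicate 2 (638). Without HFD replicate 1 and HLJDD replicate 2 they were 2556 and 3349, and against ND replicate 3 alone 11 and 32. HLJDD against HFD gave 1 gene without HLJDD replicate 2 and 0 in every other fit that leaves out 1 library. Depth limits Aldh1a2 and, in ND, Adh4 most.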
